A study of Mus musculus with 6 samples.

Results

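Lymphatic vessels drain fluid, antigen and immune cells from the kidney. The genes described here are Prox1, Lyve1, Pdpn, Flt4, Vegfc and Nrp2, which encode a transcription factor, a growth factor, its receptors and surface proteins of the lymphatic endothelium. Every probe that the array annotation names for 1 of these 6 genes was taken, control spots aside. These 6 of the 36870 gene names on the array gave 11 of 56605 probes, with 2 probes for Prox1, 3 each for Vegfc and Nrp2, and 1 each for Lyve1, Pdpn and Flt4. All 11 were well above background on all 6 arrays and all 11 were tested.

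The arrays were made from whole kidneys of female mice at 6 months of age. The 3 MRL mice (MRL/MpJ) were the controls. The 3 LPR mice (MRL/MpJ-Fas lpr/lpr) have the same MRL/MpJ background and are homozygous for lpr, a loss-of-function mutation of the apoptosis receptor gene Fas that leads to lupus-like autoimmune disease. Each mouse gave 1 array. The study compared the strains for genes of tertiary lymphoid tissue, the ectopic clusters of immune cells that form in chronic inflammation. Whole-kidney RNA mixes all cell types of the organ, so fewer cells of a type and less RNA per cell cannot be told apart in any value below.

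In lymphatic development, Prox1 turns on the lymphatic programme in venous endothelial cells. Vegfc is the ligand that makes these cells sprout, Flt4 (VEGFR-3) is its signalling receptor, and Nrp2 is a coreceptor that also binds class 3 semaphorins. Lyve1 binds hyaluronan on lymphatic capillaries, and Pdpn (podoplanin) is a mucin-like protein that keeps lymph and blood vessels apart through platelets. None of these genes is limited to lymphatic vessels. Podocytes and reticular stroma also express Pdpn, some macrophages express Lyve1, Nrp2 and Vegfc, and the epithelium of the thick ascending limb can express Prox1.

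Values are log2 signals relative to the 75th percentile of each array, so that 0 is the level of that percentile, and a log2 change is LPR minus MRL. Each array carried 59305 spots that were not controls, 73 to 90 of which were left out as outliers, and 0 were saturated. The 75th percentile was 942 for LPR 1 and 706 to 759 for the other arrays. Of the Fas probes, A_52_P73385 exceeded background clearly in 0 of 3 MRL and 3 of 3 LPR mice, with LPR at least 1.47-fold above MRL. Its limma test (adjusted p = 0.0338) was of the fitted log2 change of 1.89, which uses the dim MRL signals, and not of this bound. A_55_P2091676 had a log2 change of -0.47 (adjusted p = 0.234, limma). Whether these probes lie beyond the mutated stretch was not examined, so they do not check the labels. The 6 arrays sat on 1 slide, with the MRL arrays and LPR 1 in the first row and LPR 2 and LPR 3 in the second. Across all 39924 tested probes the median log2 change was -0.14. The number of arrays limits the precision.

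Of the 11 lymphatic probes, 2 were higher and 1 was lower in LPR mice (limma, adjusted p under 0.05). Beside them, 6.53% of all tested probes were higher and 6.17% were lower, or 12.7% in either direction. The probes that passed belong to Pdpn, Nrp2 and Prox1, and for Nrp2 and Prox1 the brightest probe did not pass. The median log2 change of the 11 probes was 0.10. With 1 probe per gene, the brightest, it was -0.01. Probes of 1 gene share their target, so these counts are not 11 independent results and nothing particular to lymphatic genes is read from them. The plots of values by mouse and of changes with their intervals show all 11 probes.

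**Figure D1:**
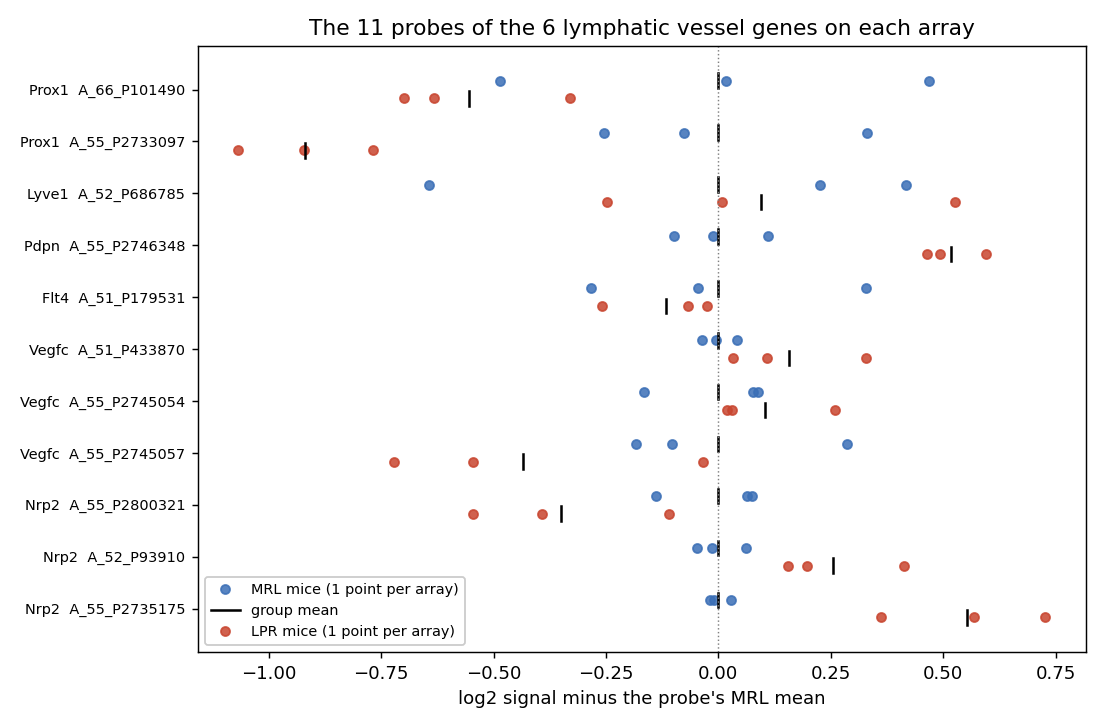
Log2 signal of each of the 11 probes on each array, drawn relative to the mean of the 3 MRL mice for that probe, with MRL mice in blue, LPR mice in red and a black bar at each group mean. The 3 LPR mice lie above all MRL mice for Pdpn and for 2 Nrp2 probes, as for 11.0% of all tested probes. They lie below all MRL mice for Prox1 A_55_P2733097, as for 26.9% of all tested probes.

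**Figure D2:**
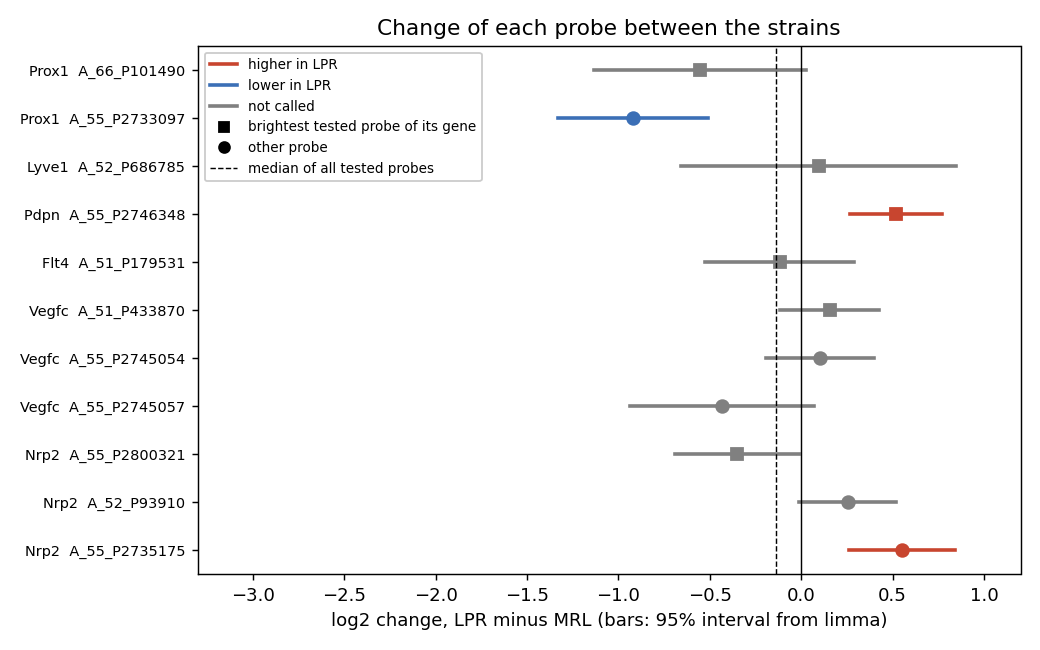
Log2 change, LPR minus MRL, of each of the 11 probes with its 95% interval from limma. Red and blue bars passed the threshold as higher and lower in LPR mice, grey bars did not, squares are the brightest probe of a gene, and the dashed line is the median of all tested probes at -0.14.

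Prox1 was lower in LPR kidneys by the probe A_55_P2733097 and was not called by the brighter probe A_66_P101490. Both probes are on the minus strand of chromosome 1 of build mm9, the brighter at 191946360 to 191946419 and the other at 191943668 to 191943727. They target different stretches of the same gene, as the first 30 bases of each show.
Prox1 A_66_P101490: agcttggccgtgtggacttagaggaaaccc
Prox1 A_55_P2733097: gtgcctctgagtgttacttaattgaagtat

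A_55_P2733097 gave -0.63, -1.21 and -1.04 in MRL 1, 2 and 3 and -1.73, -2.03 and -1.88 in LPR 1, 2 and 3. All LPR mice were below all MRL mice, as for 26.9% of all tested probes. The means were -0.96 ± 0.30 and -1.88 ± 0.15 (SD, n = 3 each), a log2 change of -0.92 (standard error 0.17), or 1.89-fold lower in LPR mice (adjusted p = 0.0174, limma). The brighter probe gave -0.52, -1.47 and -0.97 in MRL mice and -1.62, -1.32 and -1.69 in LPR mice. MRL 2 lay within the range of the LPR mice, so the groups overlapped. Its log2 change of -0.55 (95% interval -1.13 to 0.03) did not pass (adjusted p = 0.180, limma). The changes of the 2 probes differed by 0.37, which an exact two-sided permutation test did not separate (p = 0.2, where 0.1 is the smallest that 3 against 3 mice allow).

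With the slide row as a block the log2 change of A_55_P2733097 was -0.77, a value that compares LPR 1 alone with the MRL mice. Without LPR 3 the log2 change was -0.92 (adjusted p = 0.0582, limma), which ended the call. Of 6 markers of the thick ascending limb, 0 were higher and 0 were lower in limma and in the methods' t-test (1 higher and 2 lower at an unadjusted p under 0.05 in limma). The methods' t-test was run on all tested probes with the same adjustment, unlike in the study, which used it for genes of at least 10-fold difference. The summed signal of the list, in units of the 75th percentile, was 332 to 357 in MRL mice and 277 to 294 in LPR mice. All LPR mice were below all MRL mice, as for 26.9% of all tested probes taken singly. Umod, at 8.05 in MRL and 7.84 in LPR mice, makes up most of this sum, and its log2 change of -0.21 did not pass (adjusted p = 0.213, limma). The 6 log2 changes ran from -0.64 (Kcnj1) to 0.39 (Cldn16). The part of that segment in the Prox1 values was not tested.

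Vegfc, the ligand, did not pass the threshold with any of its 3 probes. The brightest, A_51_P433870, is at 55271533 to 55271592 on the plus strand of chromosome 8, and A_55_P2745057 is at 55244696 to 55244755 on the same strand. The third, A_55_P2745054, crosses at least 1 splice junction: its 60 bases are placed over 108088 bases of the gene, from 55163262 to 55271349. It was designed to a separate Vegfc transcript (EU862553), and its first reading frame runs without a stop up to a TGA at its last 3 bases, in capitals. A_55_P2745057 is shown beside it as a probe placed in 1 unbroken stretch of the gene.
Vegfc A_55_P2745054: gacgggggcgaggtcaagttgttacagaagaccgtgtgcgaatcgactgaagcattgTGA
Vegfc A_55_P2745057: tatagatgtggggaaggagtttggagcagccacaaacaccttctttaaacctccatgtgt

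A_51_P433870 gave -0.43, -0.35 and -0.40 in MRL mice and -0.07, -0.29 and -0.36 in LPR mice. LPR 1 was the highest of the 6, and LPR 3 lay within the MRL range. The log2 change was 0.16 (95% interval -0.11 to 0.43, adjusted p = 0.389, limma). The probe of the separate transcript gave -2.48, -2.24 and -2.23 in MRL mice and -2.06, -2.28 and -2.30 in LPR mice, with a log2 change of 0.10 (95% interval -0.19 to 0.40, adjusted p = 0.608, limma). Again LPR 1 was the highest and the other LPR mice lay among the MRL mice.

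A_55_P2745057 had signals near the limit of detection, between 0.75 and 1.70 log2 units above the lowest signal well above background on the same array. It gave -4.78, -4.86 and -4.39 in MRL mice and -4.71, -5.39 and -5.22 in LPR mice. LPR 2 and LPR 3 were the lowest, and LPR 1 lay among the MRL mice. Its log2 change was -0.43 (95% interval -0.94 to 0.07, adjusted p = 0.218, limma), opposite in sign to the other Vegfc probes. The change of this probe lay 0.59 and 0.54 below those of A_51_P433870 and A_55_P2745054, each with the smallest p possible (exact two-sided permutation p = 0.1, 0.14 after adjustment over 7 pairs of probes). The mean of the 3 probes gave a log2 change of -0.058 in place of 0.16.

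Flt4, the receptor of Vegfc, was measured by A_51_P179531 at 49465646 to 49465705 on the plus strand of chromosome 11. It gave -3.92, -4.30 and -4.54 in MRL mice and -4.32, -4.51 and -4.28 in LPR mice. All LPR mice lay within the range of the MRL mice, and MRL 1 was the highest of the 6. The means were -4.25 ± 0.31 and -4.37 ± 0.12 (SD, n = 3 each), and the log2 change of -0.12 did not pass (adjusted p = 0.674, limma). The 95% interval of LPR over MRL ran from 0.694-fold to 1.22-fold. Without MRL 1 the log2 change was 0.047.

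Nrp2, the coreceptor, was measured by 3 probes that did not move together. All are on the plus strand of chromosome 1. The brightest, A_55_P2800321, is at 62843061 to 62843120, and A_52_P93910 is at 62865129 to 62865188. The third, A_55_P2735175, is placed over 11508 bases from 62818403 to 62829910, which its 60 bases cross at a splice junction, and 1 of its reading frames is open. The brightest probe holds 28 bases of alternating G and T, in capitals in the 30 bases shown. The junction probe, which passed the test, is shown whole, and of A_52_P93910 the first 30 bases are given.
Nrp2 A_55_P2800321: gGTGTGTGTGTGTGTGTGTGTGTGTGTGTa
Nrp2 A_55_P2735175: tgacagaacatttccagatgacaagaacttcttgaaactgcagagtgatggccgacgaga
Nrp2 A_52_P93910: tgagccagatcacgggaactcgagagcttt

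The junction probe A_55_P2735175 gave -4.22, -4.27 and -4.26 in MRL mice and -3.68, -3.52 and -3.89 in LPR mice. All LPR mice were above all MRL mice, as for 11.0% of all tested probes, and the MRL mice were closely alike. The means were -4.25 ± 0.02 and -3.70 ± 0.18 (SD, n = 3 each), a log2 change of 0.55 (standard error 0.12), or 1.47-fold higher in LPR mice (adjusted p = 0.0305, limma). Signals of this probe were 36.8 to 73.3 before scaling, and with normexp background correction the log2 change was 0.10 (adjusted p = 0.431, limma). The call was lost in 12 of 21 alternative settings, among them leaving out any 1 of 5 mice.

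A_52_P93910 gave 1.82, 1.75 and 1.72 in MRL mice and 2.18, 1.96 and 1.92 in LPR mice. LPR mice were again all above MRL mice, as for 11.0% of all tested probes. The log2 change of 0.26 (95% interval -0.01 to 0.52) did not pass (adjusted p = 0.177, limma). The brightest probe gave 4.77, 4.99 and 4.98 in MRL mice and 4.37, 4.80 and 4.52 in LPR mice. Here LPR 1 and LPR 3 were the lowest, and LPR 2 lay above MRL 1. Its log2 change was -0.35 (adjusted p = 0.156, limma), and with quantile normalization it passed as lower (-0.38, adjusted p = 0.0439, limma).

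The brightest Nrp2 probe therefore had the opposite sign of the other Nrp2 probes. Its change lay 0.60 below that of A_52_P93910 and 0.90 below that of the junction probe, each at the smallest p that 3 against 3 mice allow (exact two-sided permutation p = 0.1, 0.14 after adjustment over 7 pairs). The change of A_52_P93910 also lay 0.30 below that of the junction probe, at the same p. This p therefore does not set the brightest probe apart. The mean of the 3 probes gave a log2 change of 0.15. The brightest probe without such a repeat, chosen after its values were seen, gave 0.26.

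Of all 56605 probes, 54 (0.0954%) hold a run of at least 24 bases of alternating G and T, or of A and C, which is the same repeat read on the other strand. All 54 were well above background on all 6 arrays, and 0 passed in limma or in the methods' t-test (25 were lower and 0 higher at an unadjusted p under 0.05 in limma, where 20.5% of all tested probes were lower and 9.83% higher). Beside the Nrp2 probe, 36 read the repeat as GT and 17 as AC. In all 36 GT probes LPR 1 was the lowest mouse, as in the Nrp2 probe, and their log2 changes ran from -0.41 to -0.27. In all 17 AC probes MRL 1 was the highest mouse and LPR 2 the lowest, with log2 changes from -0.23 to -0.12. After centring each probe on its own mean, the root mean square difference from the Nrp2 probe over the 6 arrays was 0.01 to 0.06 for the GT probes, 0.34 to 0.37 for the AC probes and 0.25 in the median for 35945 probes without such a run. Which transcripts bind this probe was not tested.

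**Figure D3:**
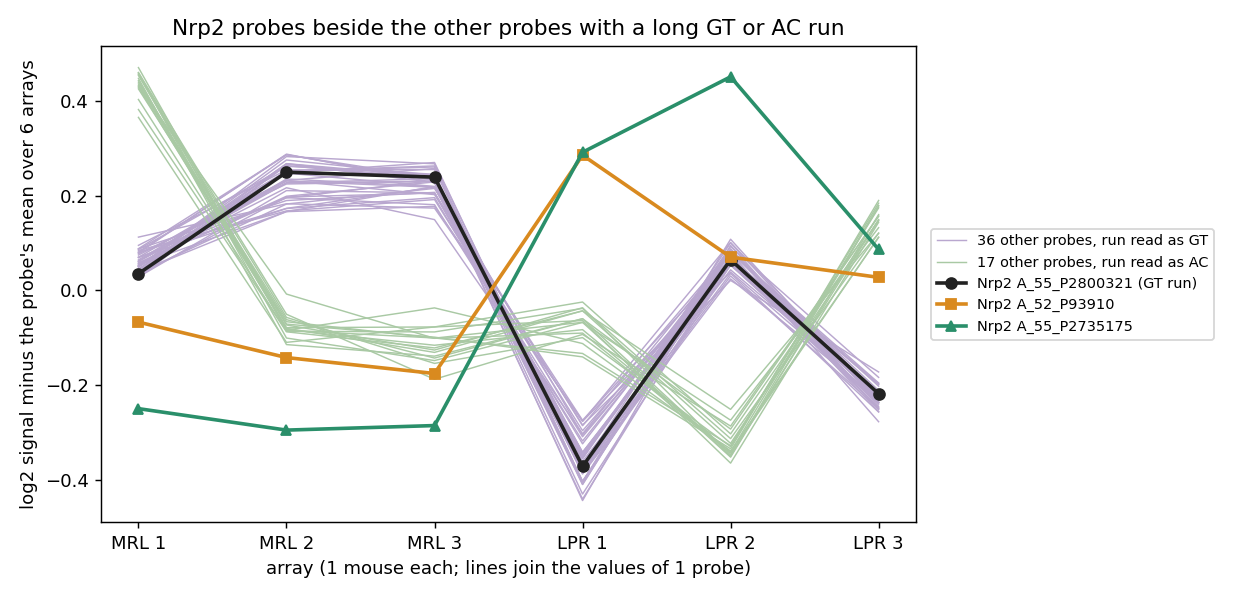
Log2 signal of the 3 Nrp2 probes and of the 53 other probes with a run of GT or AC, each relative to its own mean over the 6 arrays. The Nrp2 probe with the GT run follows the 36 probes that read GT, with LPR 1 lowest. The other Nrp2 probes are higher in all 3 LPR mice than in the MRL mice, as for 11.0% of all tested probes.

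Lyve1, the hyaluronan receptor of lymphatic capillaries, was measured by A_52_P686785 on the minus strand of chromosome 7 at 117994171 to 117994230. The first 30 bases are given because a single dim probe carries all that is known of Lyve1 here.
Lyve1 A_52_P686785: cactttgtgtgcctttaacaaatacattat

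Its signals of 12.9 to 37.3 before scaling lay between 0.05 and 1.75 log2 units above the lowest signal well above background on the same array. The values were -5.83, -4.77 and -4.96 in MRL mice and -4.66, -5.18 and -5.43 in LPR mice. MRL 1 was the lowest and LPR 1 the highest of the 6, and the groups overlapped. The means were -5.19 ± 0.57 and -5.09 ± 0.39 (SD, n = 3 each), and the log2 change of 0.10 did not pass (adjusted p = 0.863, limma). The 95% interval of LPR over MRL ran from 0.635-fold to 1.80-fold, so changes within these bounds are not excluded. The sign turned without MRL 1 (-0.23), without LPR 1 (-0.12) and with normexp (-0.069).

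Pdpn was higher in LPR kidneys. Its probe A_55_P2746348 is on the minus strand of chromosome 4 at 142857423 to 142857482, and its first 30 bases are shown because, of the brightest probes of the 6 genes, it is the 1 that passed.
Pdpn A_55_P2746348: aaggtttgcggttaatagaagatatttcca

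The values were 0.67, 0.88 and 0.76 in MRL mice and 1.37, 1.24 and 1.27 in LPR mice. All LPR mice were above all MRL mice, as for 11.0% of all tested probes, with a gap of 0.35 between the groups. The means were 0.77 ± 0.10 and 1.29 ± 0.07 (SD, n = 3 each), a log2 change of 0.52 (standard error 0.11), or 1.43-fold higher (adjusted p = 0.0241, limma). With the slide row as a block the log2 change was 0.59, a value that compares LPR 1 alone with the MRL mice. With the slide column the log2 change was 0.47 (adjusted p = 0.204, limma), which ended the call. This value rests on MRL 1 with LPR 2 and MRL 2 with LPR 3, the mice that share a column. Leaving out any 1 mouse but LPR 2 also ended the call, while the log2 change stayed between 0.47 and 0.57.

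Of 8 podocyte markers, 0 were higher and 1 was lower. This was Magi2, a slit diaphragm scaffold, by a log2 change of -0.44 (adjusted p = 0.0500, limma), which was lost in 16 of 21 alternatives and not called by the 4 other tested probes. The summed signal of the list, of 22.2 to 25.0 in MRL mice and 22.6 to 29.3 in LPR mice, overlapped. Of 10 markers of fibroblasts and reticular stroma, 8 were higher and 0 were lower, with sums of 28.3 to 31.2 and 63.4 to 68.6. The largest rises among them were those of Cxcl13 (log2 change 5.93), Col1a1 (2.37) and Ccl19 (2.10), a B cell chemoattractant, a fibrillar collagen chain and a T zone chemokine. All markers of the podocyte and stromal lists were tested, and Cxcl13 exceeded background clearly in 2 of 3 MRL and 3 of 3 LPR mice. The part of these cells in the Pdpn rise was not tested.

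The 6 lists around these genes held 64 distinct genes, of which 60 were tested, 4 were higher, 3 were lower and 53 did not pass. Of all tested probes, 6.53% were higher and 6.17% lower, or 12.7% in either direction, and nothing particular to the lists is read from these counts. The median log2 change was -0.04 beside -0.14 over all tested probes. Among 8 genes of VEGF-C processing and receptors, 7 were tested. The 1 that passed, Kdr (VEGFR-2, the main VEGF receptor of blood endothelium, which also binds mature VEGF-C), was lower at 2.05 ± 0.12 in MRL and 1.48 ± 0.16 in LPR mice (SD, n = 3 each), a log2 change of -0.57 (adjusted p = 0.0317, limma), a call lost in 11 of 21 alternatives. Vegfd, the other ligand of Flt4, had a log2 change of 0.49 that did not pass (adjusted p = 0.0596, limma). Of 12 class 3 semaphorins and plexins, ligands and signalling partners of the neuropilins, 0 passed in either direction in limma, and 1 was higher and 1 lower at an unadjusted p under 0.05. The methods' t-test, run in this way on all tested probes, called Plxnd1, a plexin of endothelium with a log2 change of 0.32, higher. The 12 log2 changes ran from -0.49 (Sema3e) to 0.43 (Sema3a).

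Of 7 transcription factors of lymphatic development and valves, Nfatc1, which acts in valve formation, was higher, at -1.10 ± 0.13 in MRL and -0.49 ± 0.24 in LPR mice (SD, n = 3 each), a log2 change of 0.61 (adjusted p = 0.0433, limma). This call was lost in 12 of 21 alternatives, and the other Nfatc1 probe was also higher, by 1.13 (adjusted p = 0.00106, limma). The other 6, among them Sox18 (0.30) and Nr2f2 (-0.22), which act upstream of Prox1, did not pass. Of 22 other genes of lymphatic endothelium, Itga9, an integrin of lymphatic valves, was higher by a log2 change of 0.77 (adjusted p = 0.00402, limma). Gja1, a gap junction protein of valves, was lower, with a log2 change of -0.76 (adjusted p = 0.0357, limma), a call lost in 11 of 21 alternatives. Its probes A_55_P2741897 (-0.87, adjusted p = 0.0291, limma) and A_55_P2741907 (-0.84, adjusted p = 0.00828, limma) were also lower. A_52_P174915 (-0.37) and A_55_P2800487 (-0.93) did not pass. Mmrn1 and Reln, which lymphatic endothelium secretes, had log2 changes of 0.09 and 0.37 and did not pass. Ccl21a, the chemokine that draws dendritic cells into lymphatics, had a log2 change of 0.88 that did not pass (adjusted p = 0.0567, limma), and near-identical Ccl21 copies may share its probe.

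Of 7 partners of podoplanin, Cd44, a hyaluronan receptor that binds podoplanin, was higher and Rdx, a linker of podoplanin to actin, was lower. Cd44 rose from -4.01 ± 0.07 to -0.86 ± 0.24 (SD, n = 3 each), a log2 change of 3.15 (adjusted p = 3.21e-05, limma), and Cd44 is also widely expressed on leukocytes. Rdx had a log2 change of -0.61 (adjusted p = 0.0103, limma), and its other probe, at -0.22, did not pass. Clec1b, the platelet receptor of podoplanin, had a log2 change of 0.61 and did not pass (adjusted p = 0.156, limma). Of 8 genes of hyaluronan synthesis, receptors and breakdown, 6 were tested, and Cd44 and Has2 were higher. Has2, a hyaluronan synthase, exceeded background clearly in 0 of 3 MRL mice, and LPR mice were at least 1.34-fold above them. Its limma test (adjusted p = 0.0124) was of the fitted log2 change of 1.26, which uses the dim MRL signals, and not of this bound. Has2 was tested only because it exceeded background clearly in the LPR mice, and its call was lost in 5 of 21 alternatives.

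**Figure D4:**
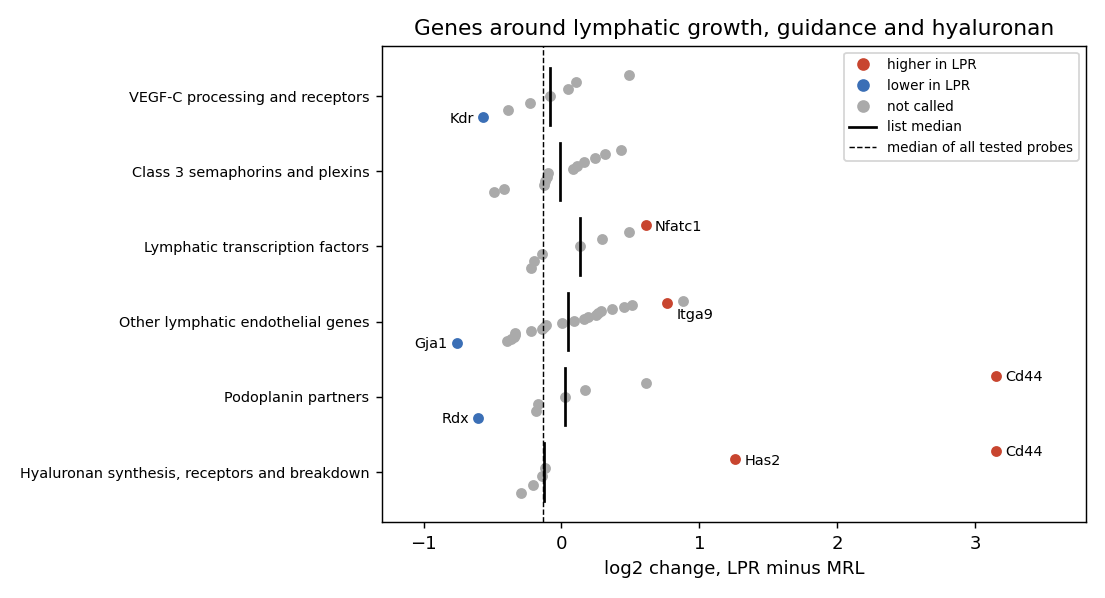
Log2 change, LPR minus MRL, of the brightest tested probe of each gene in the 6 lists around the lymphatic genes, with 1 point per gene, a black bar at each list's median and a dashed line at the median of all tested probes (-0.14). Named points passed the threshold. Cd44 at 3.15 stands in both the podoplanin and the hyaluronan list, and Has2 is drawn at its fitted value, for which the MRL signals were not well above background.

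Markers of other cells of the kidney were measured on the same arrays. Of 10 markers of blood endothelium, 0 were higher and 1, Kdr, was lower, with sums of 54.6 to 58.2 in MRL and 50.8 to 54.2 in LPR mice. The median log2 change of these 10 markers was -0.04, beside -0.14 over all tested probes. Of 12 macrophage markers, 10 were higher and 0 were lower, with sums of 36.8 to 45.0 and 141 to 151. Of 7 T cell markers, 6 were higher, with sums of 2.83 to 3.25 and 12.6 to 14.5. Of 6 B cell markers, 3 were higher, with sums of 1.55 to 1.67 and 4.27 to 5.52. The probes of Ms4a1 (CD20) went opposite ways: the brighter was lower by a log2 change of -0.70 (adjusted p = 0.0497, limma), a call lost in 15 of 21 alternatives, and the other was higher by 4.99 (adjusted p = 0.00281, limma). No direction is read for this gene. Cd22 was not called by its brightest probe (log2 change -0.03) or by A_55_P2163795 (-0.11). Its probe A_51_P448140 was higher by 3.47 (adjusted p = 0.00016, limma). Of 6 proximal tubule markers, Slc5a2 and Lrp2 were lower (lost in 9 and 14 of 21 alternatives) and 0 were higher, with sums of 564 to 611 and 435 to 486. The sums of the macrophage, T cell, B cell and stromal lists were higher in all LPR mice, as for 11.0% of all tested probes taken singly. Those of blood endothelium and the proximal tubule were lower in all LPR mice, as for 26.9%. The part of macrophages, T cells, B cells and stroma in the values of Lyve1, Nrp2, Vegfc and Pdpn was not tested.

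**Figure D5:**
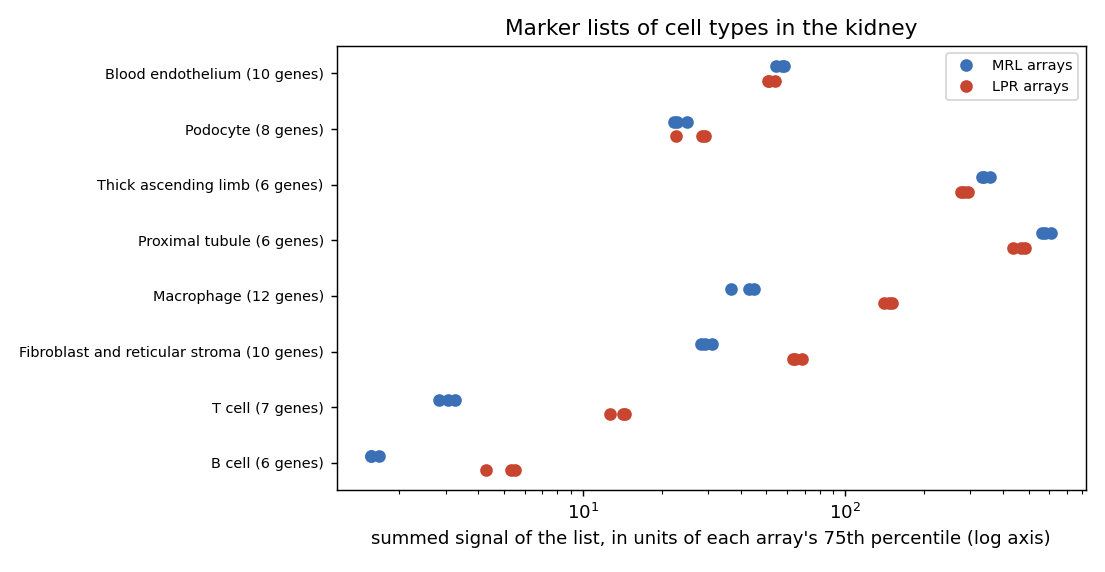
Summed signal of each marker list on each array, in units of the 75th percentile of that array and on a log axis, with MRL arrays in blue and LPR arrays in red. The sums of macrophage, stromal, T cell and B cell markers were higher on all LPR arrays, whereas those of the thick ascending limb, the proximal tubule and blood endothelium were lower and those of podocytes overlapped. A sum weighs the brightest genes of its list most, such as Umod in the thick ascending limb.

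For each gene, the 3 other RefSeq genes whose pattern over the 6 arrays was nearest to that of its brightest probe were found among 22577 probes. The distance was the root mean square difference of the centred log2 values. For Pdpn they were Ecscr, Tns4 and Gusb (0.03 to 0.05), each of which also passed as higher. For Prox1 they were Hsd3b5, Hapln1 and Acot7 (0.09 to 0.11), and for Lyve1 they were Cdc20, Mxd3 and Cdca3 (0.10 to 0.12). Flt4 was nearest to Mtif2, Primpol and Clps (0.04 to 0.06), and Vegfc to Slc39a6, Vopp1 and Scarb1 (0.02 to 0.03). For Nrp2 they were Ung, Mcam and Tmem239 (0.02 each), whose probes hold GT or AC runs of 34, 20 and 30 bases. These distances over 6 arrays are descriptions, and nothing about shared control is read from them.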

How the data were processed

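Cy3-labelled RNA of 3 MRL and 3 LPR kidneys was hybridized to 6 arrays of 1 Agilent slide (1 mouse each). The authors deposited per spot the background-subtracted intensity of Agilent Feature Extraction (12.0.3.1), not normalized between arrays, and a value table in which the intensity is divided by about the 75th percentile of each array (a ratio), which served as an alternative. Here, control and outlier spots were left out, the intensity was taken to log2, each array's 75th percentile was subtracted and spots of a probe were averaged. Probes well above background on at least 3 of 6 arrays were tested in R 4.3.3 with limma 3.58.1, p-values being adjusted by Benjamini-Hochberg (threshold 0.05). Each gene was represented by its tested probe of highest mean signal. A probe not above background on a whole group gave a lower bound, the mean of the brighter group over the dim group's signals, with any lower one set to that array's lowest signal that was well above background.

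Probe positions are those of the array annotation (mm9), and probe sequences were taken from the same files. No genome annotation was used, so exons and UTRs are not given. The genes, lists and tests were chosen with earlier results of these data known. Named genes are the 6 genes with all probes, Fas, up to 3 of the largest rises and falls per list among genes that passed, and the 3 nearest genes by pattern. Other genes of the lists were named after their values were seen. Changes of probes of 1 gene were compared by exact permutation within arrays over 7 pairs. The limma fit was tested on simulated data. It recovered 57 of 100 probes with a true log2 change of 1 and 93 of 100 with 2, with 11 false calls. A true log2 change of 1 can therefore fail to pass. Alternatives were normexp (offset 50), quantile, median and detected-probe scaling, the value table, no filter or a filter on all 6 arrays, a floor, outlier spots kept, an intensity trend, the methods' 2-tailed t-test on log2 and linear values (run here on all tested probes with the same adjustment, whereas the study used it for genes that differed at least 10-fold, which no lymphatic probe did), slide column, slide row or replicate number as a block, the mean of a gene's probes, and leaving out each mouse. Figures were drawn with matplotlib 3.10.9.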

Additional observations from a re-analysis of the deposited data

How the results depend on the processing

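Of the 11 lymphatic probes, 2 were higher and 1 was lower in the reported fit. Normexp gave 1 higher probe, and no filter on dim probes, the slide column and the replicate block gave 0. The slide column compares MRL 1 with LPR 2 and MRL 2 with LPR 3. The slide row compares LPR 1 alone with the MRL mice, so its counts of called lymphatic probes and list genes are not given. Its counts over all probes are printed below, and for the same reason nothing is read from them. Counts of calls lost in 21 or 22 alternatives include the slide row. The 2-tailed t-test over all tested probes, on log2 and on linear values, gave 1 higher and 0 lower, and quantile normalization gave 2 lower. Leaving out 1 mouse gave 0 to 1 higher and 0 to 1 lower. The log2 change of Pdpn had the same sign in all 22 alternatives and its call was lost in 9. The lost calls were at 0.52 without a filter (adjusted p = 0.0535, limma), 0.47 with the slide column, 0.59 with the slide row, 0.52 with the replicate block (adjusted p = 0.0717, limma) and, over the mice left out in turn, 0.47 to 0.57. The Prox1 probe that was lower lost its call in 4 of 21 alternatives and the Nrp2 junction probe in 12 of 21, both with the same sign throughout.

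Quantile normalization made the brightest Nrp2 probe pass (-0.38). It reversed with the mean of the probes (0.15) and with the brightest probe without a GT run (0.26, chosen after seeing the data). Lyve1 reversed with normexp (-0.069) and with the slide column (-0.0065), and leaving out 1 mouse gave -0.23 to 0.30. Vegfc reversed with the mean of its probes (-0.058). Leaving out 1 mouse gave -0.26 to 0.047 for Flt4. The brighter Prox1 probe passed in 0 of 22 alternatives.

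In the 64 genes of the lists, 4 higher and 3 lower became 7 and 5 with normexp and 9 and 5 with the intensity trend. The lower count was 1 without a filter, with either t-test and with the replicate block, 0 with the slide column and 1 to 3 on leaving out 1 mouse. Over all probes, 2606 higher and 2462 lower became 1736 and 1386 with the t-test on log2 values, 1444 and 1354 on linear values, and 1458 and 463 with the slide row. The lower count was 4498 with normexp, 1093 without a filter, 973 with the slide column, 1117 with the replicate block and 760 to 2269 on leaving out 1 mouse. Higher probes made up 51.4% of the calls, 36.0% with normexp, and 56.7% and 58.9% with the median shift and the percentile over detected probes. The replicate numbers are not known to pair the mice: deviations of same-numbered mice correlated at 0.12, 0.02 and 0.01. The causes were not tested. Dim signals limit Lyve1 and the dimmest Vegfc, Flt4 and Nrp2 probes.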
